A study of Mus musculus with 24 samples.

Results

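Motile cilium axoneme gene families were followed in the mediobasal hypothalamus of mice under timed sleep restriction. Members were all genes whose array symbol begins with Dnah, Dnai, Dnaaf, Cfap, Rsph, Spag or Tekt and a digit, plus Foxj1, each read from its probe set of highest mean. The rule found 76 genes among 19938 on the array: 31 Cfap, 15 Dnah, 12 Spag, 7 Dnaaf, 5 Rsph and 5 Tekt genes and Foxj1, while no symbol matched Dnai. Of these, 38 had a mean over all arrays above 5.84 log2 units, the 40th percentile of all genes, and were tested among 11963 genes. They were 20 Cfap, 9 Dnah, 5 Spag, 2 Rsph, 1 Dnaaf and 1 Tekt genes. The members nearest this limit were Cfap61 (5.85), Dnah11 (5.86) and Dnah2 (5.87) inside it, and Foxj1 (5.84) and Dnaaf3 (5.84) outside it. This mean takes in the arrays that are compared below, and Dnah11 and Cfap61 reached the limit only with the CON ZT7 arrays, where they read high.

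Mice of the strain labelled C57BL76J were sampled in 2 conditions at 4 times, which the titles give as 1, 7, 13 and 19, taken here as zeitgeber hours (ZT, counted from lights on). In timed sleep restriction (TSR) the animals were held awake by gentle handling between ZT0 and ZT6 for 5 days, slept freely for 2 days, and were then restricted for another 5 days. Control mice (CON) were left undisturbed over the same period. Age, sex and the day of tissue collection could not be taken from the labels, so ZT7 is 1 h after the daily window of handling closes, on a day that is not known. Each of the 8 groups held 3 arrays, and the series describes 3 mice at each time in each condition. P-values measure the spread between these arrays, part of which may be technical. Of 14 markers of the arcuate and ventromedial nuclei listed for the tissue, 12 passed the same limit on the mean level. So did 12 of 15 suprachiasmatic markers, 11 of 13 of forebrain cholinergic and striatal neurons, and 10 of 11 of thalamus and cortex. Passing the limit therefore does not set this tissue apart from its neighbours.

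The axoneme is the microtubule core of a motile cilium, built of outer doublet microtubules around a central pair. Dynein arms on the doublets pull neighbouring doublets past each other, and radial spokes and the central apparatus set the rhythm of the beat. In the hypothalamus such cilia stand on the ependymal cells that line the third ventricle and move cerebrospinal fluid along its wall. Their genes are switched on during differentiation by the forkhead factor FOXJ1 and by RFX factors, which bind a DNA element called the X-box.

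Windows of promoter sequence are shown because many genes of motile cilia are known targets of RFX factors. Whether these factors had a part in the differences at ZT7 was not tested. RefSeq promoters of assembly GRCm38.p6, running from 250 bases before to 50 bases after a listed start, were found for 62 of the 76 members. A gene can have several such windows: of 32851 in all, 19827 lay at the RefSeq start of the gene. A gene counted if any of its windows held the motif, and the number of windows per gene was not matched. The motif GTTGCC, part of the X-box and searched on both strands, lay in the promoters of 26 of the 62 members (41.9%), against 14.1% of 27025 genes. It was in 8 of 22 members that passed as lower at ZT7 in 20 arrays (36.4%), in 3 of 9 tested members that did not pass (33.3%) and in 15 of 31 that were not tested (48.4%). The full X-box consensus, which overlaps GTTGCC, was in 13 of 62 members (21%) against 2.82% of genes. It was in 1 of 22 members that passed (4.55%), in 2 of 9 tested members that did not (22.2%) and in 10 of 31 that were not tested (32.3%). The forkhead motif TAAACA, also searched on both strands, was in 15 of 62 members (24.2%) against 15.1% of genes. A match describes the letters of a window and says nothing of binding.

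The windows are those upstream of the start that hold GTTGCC in tested members, taking the match nearest the start. Capitals mark GTTGCC, or GGCAAC where it lies on the strand opposite to the gene, and all are written 5′ to 3′ along the gene. Members that passed as lower at ZT7 in 20 arrays come before Cfap20dc, Cfap298 and Cfap300, which did not pass there.
Cfap44, chr16:44394762-44394798, plus strand: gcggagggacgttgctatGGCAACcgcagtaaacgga
Cfap46, chr7:139683816-139683842, minus strand: gtctgggccccgtctctaGGCAACcgc
Cfap74, chr4:155409185-155409226, plus strand: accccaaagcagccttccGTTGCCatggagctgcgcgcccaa
Cfap161, chr7:83794855-83794896, minus strand: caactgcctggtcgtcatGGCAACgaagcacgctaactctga
Cfap20, chr8:95434940-95434981, minus strand: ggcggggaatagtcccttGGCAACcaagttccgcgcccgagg
Dnah10, chr5:124725047-124725084, plus strand: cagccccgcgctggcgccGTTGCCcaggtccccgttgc
Cfap20dc, chr14:8666361-8666402, minus strand: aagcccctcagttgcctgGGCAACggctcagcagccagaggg
Cfap298, chr16:90934886-90934927, minus strand: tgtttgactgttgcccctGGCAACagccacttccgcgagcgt
Cfap300, chr9:8042974-8043015, minus strand: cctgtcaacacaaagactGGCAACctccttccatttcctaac
The motif thus stands in the promoters of members that passed and of members that did not.

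In 4 of the 24 arrays the values covered a narrower range than in the others, with interquartile ranges of 2.12 to 2.25 log2 units against 2.96 to 3.29. They were TSR ZT1 replicate 3, TSR ZT13 replicate 2 and CON ZT19 replicates 2 and 3. Counts of calls are given with all 24 arrays and with the 20 others, and a single gene given with 20 arrays alone did not pass with 24 unless stated. In the 20, CON ZT19 has 1 array, whose spread is assumed to be that of the other groups. Both groups at ZT7 hold no narrow array, so their values and differences are identical in both fits and only the standard error and adjusted p change. Over all genes tested the median difference, TSR minus CON, was -0.21 at ZT1, 0.00 at ZT7, -0.18 at ZT13 and 0.59 at ZT19 with 24 arrays, and 0.04, 0.00, -0.00 and 0.08 with 20. After quantile normalization of the 24 arrays the median at ZT19 was 0.39. Among the 38 members the median SD between replicates was 0.13 log2 units in CON and 0.11 in TSR at ZT7. In the 3 groups with narrow arrays it was 0.37 to 0.51.

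At ZT7 axoneme genes were lower in restricted mice, and the decrease took in dynein heavy chains, radial spoke heads and proteins of the central apparatus. With 24 arrays 6 of 38 members fell and 0 rose, where 0.46% of all genes passed, 0.234% lower and 0.226% higher. These were Cfap65, Cfap70, Cfap74, Dnah5, Dnah10 and Dnah11, and 22 members had an unadjusted p under 0.05, against 658 of 11963 genes. Dnah11 here, and Dnah11 and Cfap61 in the counts below, were tested only through their high CON ZT7 arrays. They therefore give these counts no support. With 20 arrays 26 of 38 fell (68.4%) and 0 rose, where 26.7% of all genes passed, 13.8% lower and 12.9% higher. The median difference of the 38 members was -0.59 log2 units, within a range of -1.17 to 0.18, against 0.00 for all genes. All 3 TSR values lay below all 3 CON values in 27 of 38 members (71.1%), against 18.8% of all genes, and the opposite held for 0 members against 17.3% of genes. A fit to the 6 arrays of ZT7 alone called 22 members lower and 0 higher, all of them among the 26, where 17.7% of all genes passed, 8.89% lower and 8.79% higher. Of the 26, 19 fell by over 1.5-fold and 5 by over 2-fold. In a bulk tissue, fewer ciliated cells and less RNA in each cell cannot be told apart.

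**Figure D1:**
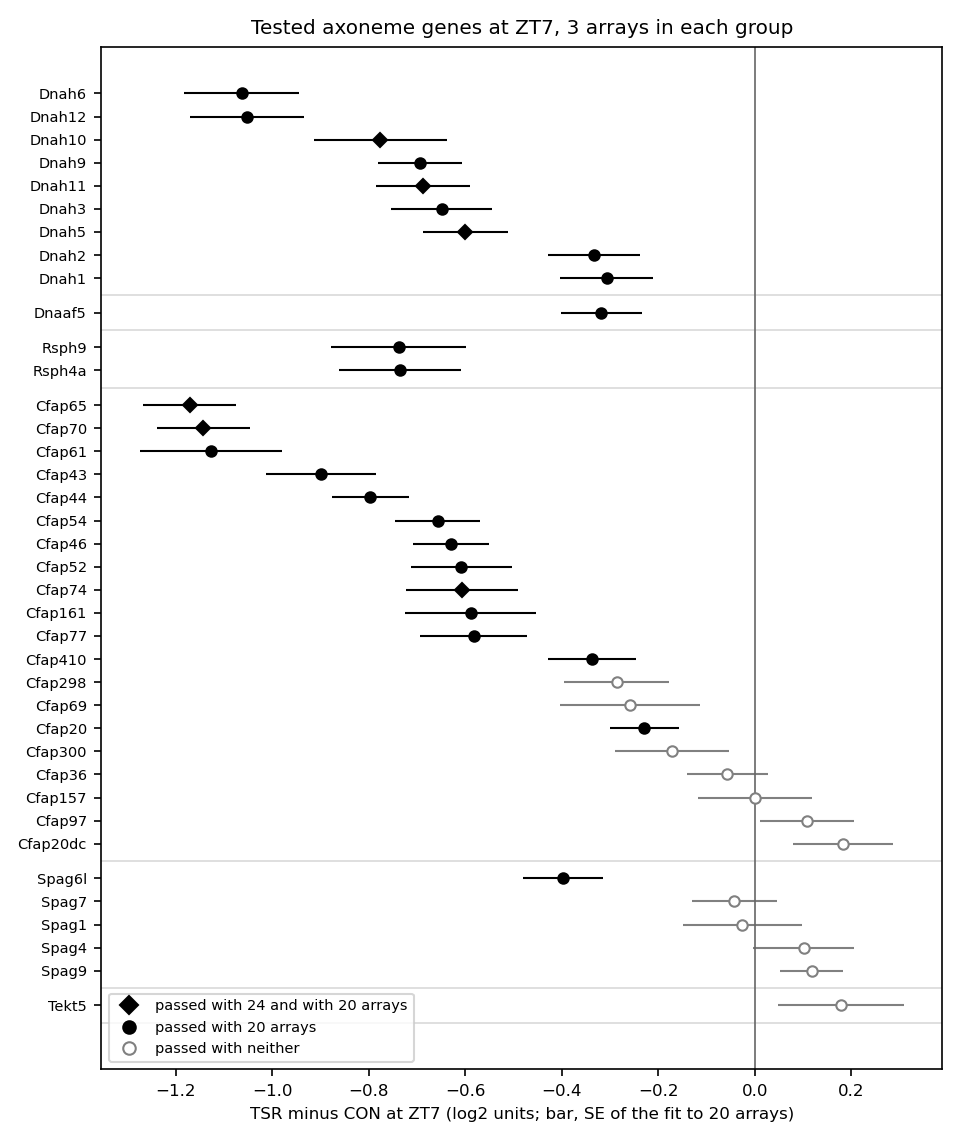
Difference TSR minus CON at ZT7 in log2 units for each of the 38 tested members, ordered by family from dynein heavy chains at the top to the tektin at the bottom, with the SE of the fit to 20 arrays as bars. Filled symbols passed in that fit, diamonds also passed with 24 arrays, and the dynein heavy chains all lie left of 0 while 4 of 5 Spag genes lie close to it.

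The count with 24 arrays changed with single arrays. It was 0 without CON ZT7 replicate 1, 1 without CON ZT7 replicate 2 or TSR ZT7 replicate 1 or 3, and 2 without CON ZT7 replicate 3 or TSR ZT7 replicate 2. It was 3 without CON ZT1 replicate 3, CON ZT13 replicate 1 or 3, or any TSR ZT19 array, and 10 without the narrow array TSR ZT13 replicate 2. With 20 arrays, leaving out each array in turn gave 24 to 26 members.

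Dynein heavy chains carry the motor domains of the arms, and all 9 tested Dnah genes fell at ZT7 with 20 arrays, by 0.31 to 1.06 log2 units. Dnah5, Dnah9 and Dnah11 encode chains of the outer arm, which supplies most of the power of the beat. Dnah11 reached the limit on the mean level only through its CON arrays of ZT7, so its test there is not support. It read 6.16, 6.24 and 6.16 log2 units in the CON arrays of ZT7 and 5.38, 5.57 and 5.54 in the TSR arrays. The lowest control thus lay well above the highest restricted array, and the difference was -0.69 ± 0.12 (SE, adjusted p = 0.00937, 24 arrays) or ± 0.10 (adjusted p = 2.95e-05, 20 arrays). Dnah5 read 6.19, 6.33 and 6.15 in CON and 5.61, 5.62 and 5.64 in TSR, a difference of -0.60 ± 0.13 (SE, adjusted p = 0.0441, 24 arrays). Dnah9 read 7.0, 6.87 and 6.89 in CON and 6.29, 6.18 and 6.21 in TSR. Its groups were as far apart, at -0.69 ± 0.16, but it passed only with 20 arrays (adjusted p = 6.81e-06, against 0.0649 with 24).

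The other 6 tested heavy chains belong to inner arms, which shape the bend of the cilium. Dnah10 read 6.46, 6.46 and 6.5 in CON and 5.49, 5.89 and 5.71 in TSR, and fell by 0.78 ± 0.17 (SE, adjusted p = 0.0389, 24 arrays). The controls lay close together, while TSR replicate 1 was the lowest of the restricted arrays. Dnah6 read 6.88, 6.96 and 6.5 in CON and 5.67, 5.81 and 5.66 in TSR, a difference of -1.06 ± 0.12 (SE, adjusted p = 1.91e-06, 20 arrays) that did not pass with 24 arrays (0.337). Dnah12 read 7.75, 7.73 and 7.51 in CON and 6.75, 6.45 and 6.65 in TSR, a difference of -1.05 ± 0.12 (adjusted p = 1.94e-06, 20 arrays, and 0.110 with 24). In both genes every control array lay well above every restricted array. Dnah1 and Dnah2 showed the smallest decreases of the family, -0.31 ± 0.10 and -0.33 ± 0.10, and passed only with 20 arrays.

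Dnah3, another inner arm chain, is covered by 33 probe sets that carry its symbol alone. All 33 were lower in TSR at ZT7, by a median of 0.71 log2 units and within a range of -1.59 to -0.15. These probe sets read transcripts of 1 gene in the same 6 arrays and are not replicates. The probe set of highest mean, which stands for the gene here, read 7.94, 7.87 and 7.80 in CON and 7.46, 7.15 and 7.06 in TSR (-0.65 ± 0.11, adjusted p = 0.000118, 20 arrays, and 0.675 with 24). All probe sets were likewise lower in Dnah10 (5 of 5), Cfap43 (5 of 5) and Dnah6 (3 of 3). Of these probe sets, 9 of 33 passed the limit on the mean level in Dnah3, 3 of 5 in Dnah10, 1 of 5 in Cfap43 and 1 of 3 in Dnah6. The direction in Dnah3 and Dnah10 was thus shared by several probe sets above the limit. In Cfap43 and Dnah6 the other probe sets lay under it, so they add little.

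Radial spokes reach from the doublets to the central apparatus, and both tested spoke head genes fell with 20 arrays. Rsph4a read 6.70, 6.81 and 6.28 in CON and 5.95, 5.73 and 5.91 in TSR at ZT7, a difference of -0.74 ± 0.13 (SE, adjusted p = 0.000199, 20 arrays). Rsph9 read 7.26, 7.55 and 6.97 in CON and 6.32, 6.47 and 6.78 in TSR, a difference of -0.74 ± 0.14 (adjusted p = 0.000542, 20 arrays). The groups did not overlap in either gene, and neither passed with 24 arrays (adjusted p 0.515 and 0.527). Cfap61, part of a calmodulin-binding complex at the base of the spokes, fell by 1.13 ± 0.15 (adjusted p = 1.12e-05, 20 arrays). It read 6.65, 6.66 and 6.35 in CON and 5.32, 5.37 and 5.58 in TSR, and its adjusted p with 24 arrays was 0.0991. Cfap61 reached the limit on the mean level only through these CON arrays, so its test is not support.

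The Cfap genes name proteins of several parts of the axoneme, and 13 of 20 fell at ZT7 with 20 arrays. The largest difference was in Cfap65, a protein of the central apparatus needed for sperm motility. It read 7.71, 7.52 and 7.44 log2 units in CON and 6.29, 6.66 and 6.21 in TSR, a 2.25-fold decrease (-1.17 ± 0.18, adjusted p = 0.00361, 24 arrays). Cfap70 read 6.67, 6.63 and 6.69 in CON and 5.51, 5.55 and 5.50 in TSR. The 3 arrays of each group nearly coincided, against a difference of -1.14 ± 0.24 between them (adjusted p = 0.0312, 24 arrays). Cfap74, of the C1d projection of the central pair, read 6.62, 6.71 and 6.34 in CON and 5.99, 6.03 and 5.82 in TSR (-0.61 ± 0.14, adjusted p = 0.0496, 24 arrays). Its partners in that projection, Cfap46 and Cfap54, fell by 0.63 ± 0.08 and 0.66 ± 0.09 with 20 arrays, with adjusted p of 6.81e-06 and 1.69e-05, and did not pass with 24.

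Cfap43 and Cfap44 form a tether that holds an inner arm dynein to the doublet. They fell by 0.90 ± 0.11 and 0.80 ± 0.08 with 20 arrays, and their adjusted p with 24 was 0.648 and 0.478. Cfap44 read 7.63, 7.56 and 7.33 in CON and 6.72, 6.69 and 6.73 in TSR, with the restricted arrays almost equal. Proteins that lie inside or between doublet microtubules fell as well: Cfap52 by 0.61 ± 0.10, Cfap161 by 0.59 ± 0.14, Cfap77 by 0.58 ± 0.11 and Cfap20 by 0.23 ± 0.07 (20 arrays, adjusted p from 0.000214 to 0.0210). Whether these sizes differ from those of other parts of the axoneme was not tested. Cfap410, a protein of the base of the cilium, fell by 0.34 ± 0.09 (adjusted p = 0.00864, 20 arrays).

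At ZT7, 12 tested members passed in neither fit. They were 7 of 20 Cfap genes (Cfap36, Cfap69, Cfap97, Cfap157, Cfap298, Cfap300 and Cfap20dc), 4 of 5 Spag genes and Tekt5. Spag9, a scaffold of kinase signalling and vesicle transport found in most cells, read 10.17, 10.26 and 10 in CON and 10.26, 10.26 and 10.27 in TSR (0.12 ± 0.07). Spag4, a protein of the nuclear envelope, differed by 0.10 ± 0.10, and Spag1, an assembly factor of dynein arms, by -0.03 ± 0.12. The groups overlapped in each of these 3 genes. The only tested Spag gene to fall was Spag6l, a protein of the central apparatus, which read 7.19, 7.37 and 7.44 in CON and 6.83, 6.92 and 7.07 in TSR (-0.40 ± 0.08, adjusted p = 0.00121, 20 arrays). Cfap298, a dynein assembly factor, had non-overlapping groups but did not pass, at -0.29 ± 0.11 (adjusted p = 0.0578, 20 arrays).

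Dynein arms are assembled in the cytoplasm by DNAAF proteins before they enter the cilium. Dnaaf5, the only tested gene of that family, read 7.14, 6.84 and 7.0 in CON and 6.71, 6.57 and 6.74 in TSR at ZT7. It fell by 0.32 ± 0.08 (adjusted p = 0.00751, 20 arrays; 0.512 with 24). Among the 38 members under the limit, 33 had a difference below 0 at ZT7, with a median of -0.20 and a range of -0.79 to 0.22. In a fit of 20 arrays without the limit, 11 of these 38 fell and 0 rose, where 15.4% of all genes passed and 7.77% fell. They were Dnaaf3, Tekt2, Rsph1, Cfap206, Rsph14, Cfap126, Cfap47, Spag16, Spag17, Cfap299 and Dnah14. With 24 arrays and no limit 0 of them passed, where 0.216% of all genes did and 0.0802% fell. In that fit 33 of the 76 members had an unadjusted p under 0.05, against 863 of 19938 genes.

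Foxj1, the transcription factor that switches on these genes, lay just under the limit and is singled out here after its values were seen. It read 5.78, 5.99 and 5.93 log2 units in the CON arrays of ZT7 and 5.66, 5.57 and 5.37 in the TSR arrays. The groups did not overlap, but the difference of -0.37 ± 0.13 did not pass in the fit of 20 arrays without the limit (adjusted p = 0.0529). At ZT13 it read 6.08, 5.81 and 5.96 in CON and 5.38 and 5.54 in the 2 TSR arrays of ordinary range, a difference of -0.48 ± 0.14 that passed there (adjusted p = 0.0125), where 27.2% of all genes passed and 12.7% fell. The narrow TSR array of ZT13 read 5.92, and with it the difference was -0.33 ± 0.18 (adjusted p = 0.553). Of the RFX genes, Rfx2 and Rfx4 were lower at ZT7 by 0.24 ± 0.08 and 0.28 ± 0.09 with 20 arrays (adjusted p = 0.0385 and 0.0170) and did not pass with 24. Rfx3 differed by -0.14 ± 0.07 (adjusted p = 0.132, 20 arrays).

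**Figure D2:**
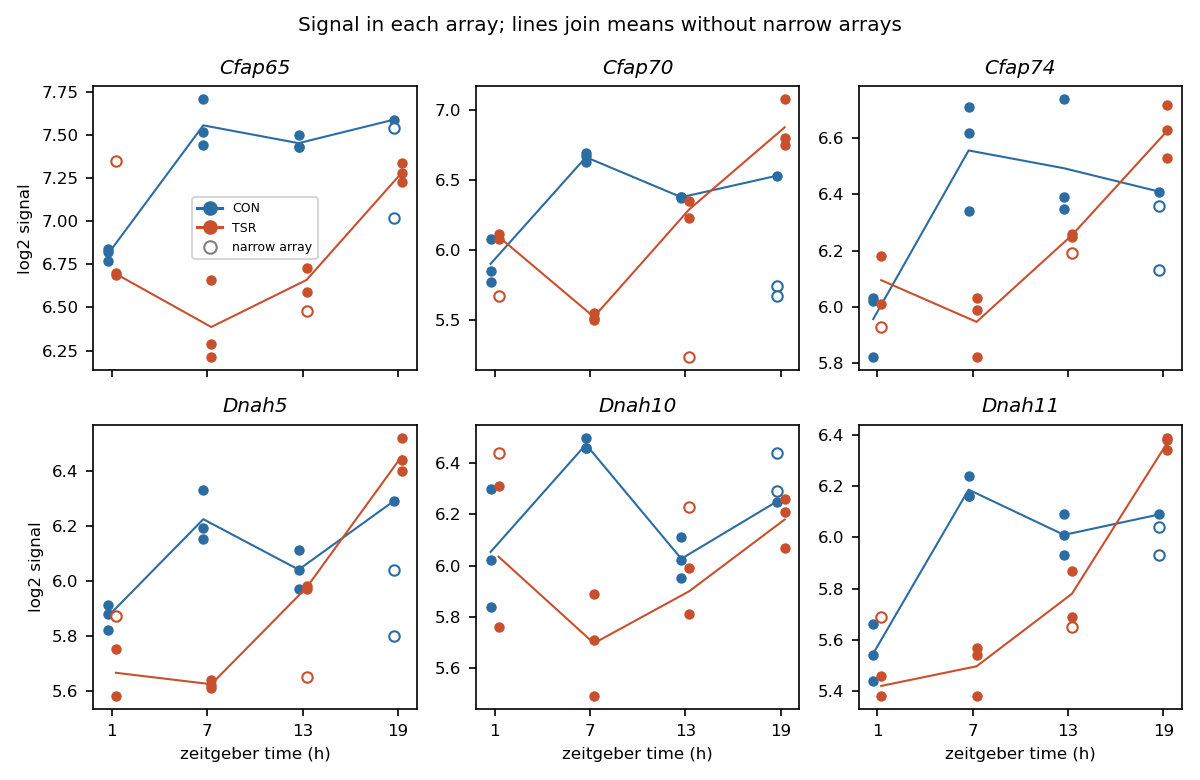
Log2 signal of the 6 members that passed at ZT7 with 24 arrays, by zeitgeber time in hours, for every CON array (blue) and TSR array (red), with open symbols for the 4 narrow arrays and lines through the group means without them. At ZT7 all 3 TSR points lie below all 3 CON points in each panel, and at ZT1 the groups lie close together.

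At ZT1, ZT13 and ZT19 the members had median differences of -0.02, -0.13 and 0.22 log2 units with 20 arrays, and of -0.07, -0.32 and 0.41 with 24. At ZT1, 0 members passed with 24 arrays, where 0.0502% of all genes did (0.0167% lower, 0.0334% higher). An unadjusted p under 0.05 was reached by 0 members, against 490 of 11963 genes. With 20 arrays 1 member passed, Cfap44 (0.29, adjusted p = 0.0480), where 10.1% of all genes did (3.1% lower, 6.95% higher). At ZT13 with 24 arrays the only call was Cfap65 (-0.86, adjusted p = 0.0373), where 0.418% of all genes passed (0.334% lower, 0.0836% higher). It was lost without any one array of CON ZT1, CON ZT7, CON ZT13, TSR ZT13 or TSR ZT19, or without TSR ZT7 replicate 1 or 3, and the count was 2 without CON ZT19 replicate 1 or TSR ZT1 replicate 3. With 20 arrays 13 members fell and 3 rose at ZT13, where 45.9% of all genes passed, 21.9% lower and 24% higher. Of the 26 members lower at ZT7, 12 were lower here too.

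The decreases at ZT13 in 20 arrays included Cfap65 (-0.80 ± 0.11), Rsph4a (-0.64 ± 0.14), Cfap43 (-0.61 ± 0.13) and Dnah2 (-0.49 ± 0.11). Rsph4a read 6.42, 6.56 and 6.69 in CON and 5.93 and 5.91 in TSR, and the narrow TSR array read 4.87. The 3 increases were in Spag9 (0.39), Cfap36 (0.43) and Spag7 (0.27). Dnah12 did not pass there, with 6.85, 7.15 and 7.09 in CON against 7.12 and 7.20 in TSR (0.13 ± 0.13).

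At ZT19 the comparison rests on the narrow arrays of the control group. With 24 arrays 20 members rose and 2 fell, where 55.4% of all genes passed, 44.2% higher and 11.2% lower, so the members' share was close to that of all genes. The count was 0 without CON ZT19 replicate 2 or 3 or TSR ZT19 replicate 1 or 2, and 14 without TSR ZT19 replicate 3. With 20 arrays 6 members rose and 1 fell, where 24.6% of all genes passed (17.6% higher, 7.06% lower), and the count was 3 without TSR ZT19 replicate 1. Dnah12 read 7.43 in the single CON array of ordinary range and 8.32, 7.82 and 7.91 in TSR (0.58 ± 0.17, adjusted p = 0.0168, and 0.0251 with 24 arrays). Dnah6 read 6.57 there and 7.22, 7.07 and 7.16 in TSR (0.58 ± 0.17, adjusted p = 0.0187, and 0.0207 with 24 arrays). Both genes were thus higher in TSR at ZT19 and lower at ZT7 in these 20 arrays.

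Averaged over the 4 times, Cfap65 was the member that fell with 24 arrays (-0.51, adjusted p = 0.00518), where 2.41% of all genes passed (1.66% lower, 0.744% higher). With 20 arrays 17 members fell and 6 rose, where 56.3% of all genes passed, 22.8% lower and 33.5% higher. Cfap65 again had the largest average difference (-0.60 ± 0.06, adjusted p = 6.82e-08), and its TSR mean was below its CON mean at each of the 4 times. Spag9 had the largest average increase (0.24 ± 0.04, adjusted p = 3.18e-05).

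**Figure D3:**
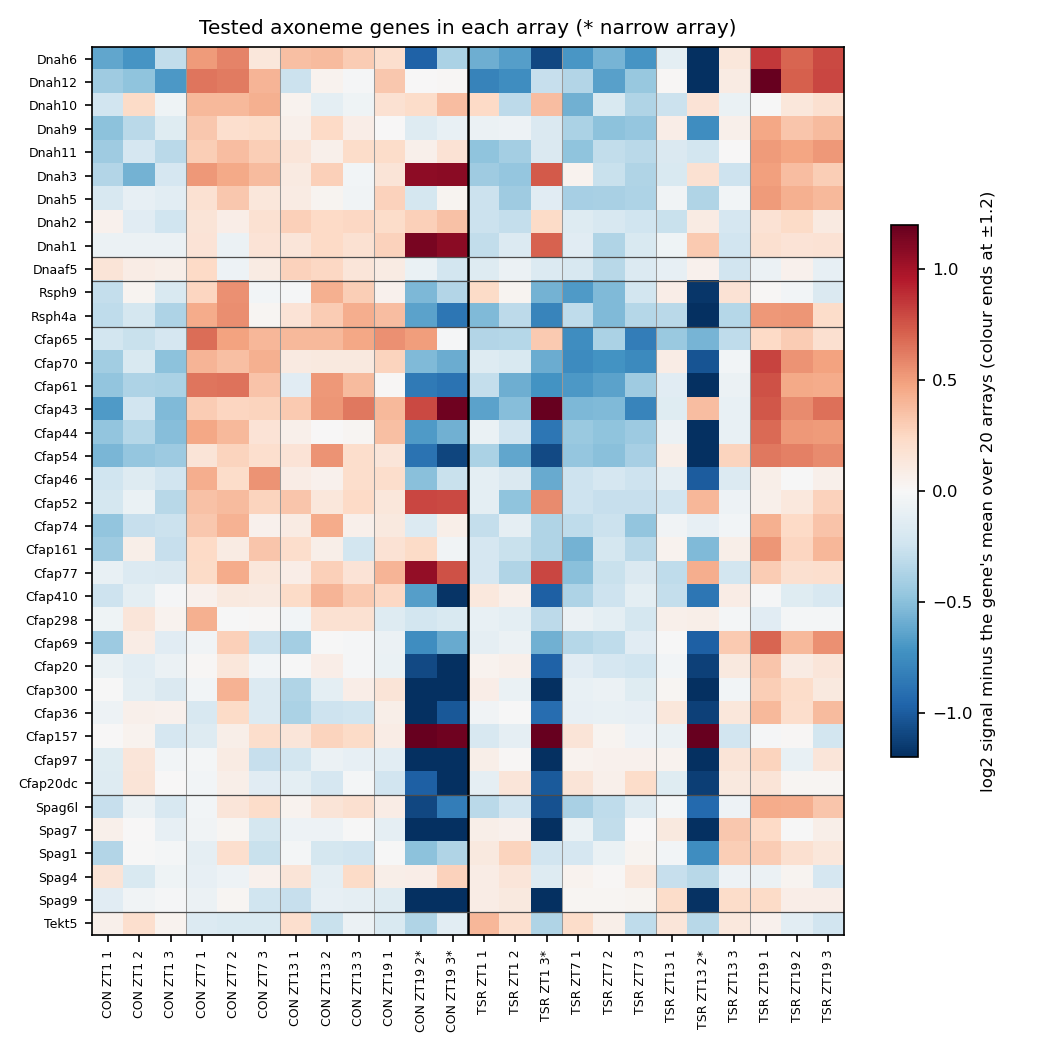
Heat map of the 38 tested members (rows, by family) in the 24 arrays (columns, by condition, time and replicate), coloured by log2 signal minus each gene's mean over the 20 arrays of ordinary range, with asterisks on narrow arrays. CON ZT7 is high and TSR ZT7 low over most dynein, spoke and Cfap rows, and the narrow arrays depart in both directions.

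The daily profile of the members differed between the conditions in the 20 arrays. In controls the lowest group mean fell at ZT1 in 26 of 38 members, and the highest at ZT7 in 16. In restricted mice the lowest mean fell at ZT7 in 25 members, and the highest at ZT19 in 29. Such counts were not made over all genes, the CON mean at ZT19 is 1 array, and the TSR low at ZT7 is not separate from the calls there. The mean level of the 38 members was 6.65 log2 units at ZT1, 7.02 at ZT7, 6.93 at ZT13 and 6.96 at ZT19 in CON. In TSR it was 6.66, 6.55, 6.79 and 7.11. Over all genes tested the mean level was 7.75, 7.72, 7.74 and 7.68 in CON and 7.78, 7.72, 7.76 and 7.75 in TSR. At ZT1 the arrays of the conditions covered 6.59 to 6.71 and 6.64 to 6.67 for the members and overlapped, whereas at ZT7 they covered 6.94 to 7.08 and 6.54 to 6.56. With 24 arrays, CON was lowest at ZT1 in 18 members and at ZT19, where 2 of 3 arrays are narrow, in another 18.

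The difference between the conditions changed with the time in 24 of 38 members with 20 arrays, where 29.7% of all genes passed that test, and 22 of them were among the 26 lower at ZT7. The test takes in the ZT7 difference itself, so its overlap with the ZT7 calls is not separate support. With 24 arrays the change passed in 4 members, Dnah11, Cfap70, Cfap61 and Cfap65, where 0.318% of all genes passed. Dnah11 and Cfap61 were tested only through their high CON ZT7 arrays. The count of 4 became 29 without CON ZT19 replicate 1, which leaves only narrow arrays at CON ZT19. It was 11 without TSR ZT13 replicate 2, 7 without TSR ZT1 replicate 3, and 0 without any one array of ZT7 or of TSR ZT19. It was 0 or 1 without CON ZT19 replicate 2 or 3, CON ZT13 replicate 2 or CON ZT1 replicate 1, and 2 without CON ZT13 replicate 3 or CON ZT1 replicate 2 or 3.

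A 24-h rhythm was tested by contrasting ZT1 with ZT13 and ZT7 with ZT19 in each condition, which at steps of 6 h cannot separate shorter periods. With 20 arrays 19 members passed in CON and 25 in TSR, 18 of them in both, where 21.4% and 21.5% of all genes passed. With 24 arrays 0 passed in CON, where 0.109% of all genes did. An unadjusted p under 0.05 was reached by 20 members, against 3778 of 11963 genes. The count that passed was 25 without CON ZT19 replicate 1, which leaves only narrow arrays at CON ZT19. It was 3 without TSR ZT13 replicate 2 and 1 without TSR ZT1 replicate 3. The share of all genes in these fits is not given. In TSR 2 passed with 24 arrays, Dnah5 and Dnah11, where 0.092% of all genes did. That count was 9 without TSR ZT13 replicate 2, 6 without TSR ZT1 replicate 3 and 1 without any one array of TSR ZT7 or TSR ZT19.

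Over the 38 members the fitted peak lay at a median of 12.2 h in CON and 17.8 h in TSR with 20 arrays, and at 9.44 h and 18.8 h with 24. The median amplitude was 0.17 log2 units in CON and 0.24 in TSR with 20 arrays, but 0.33 and 0.24 with 24, so the order of the conditions turned with the narrow arrays. With 20 arrays Dnah12 had an amplitude of 0.26 with its peak at 11.2 h in CON and of 0.81 with its peak at 17.0 h in TSR. Cfap70 went from 0.25 at 12 h to 0.68 at 18.4 h, and Dnah6 from 0.46 at 12.1 h to 0.78 at 17.4 h. These genes passed in both conditions with 20 arrays, while peaks and amplitudes were not themselves compared by a test. The control rhythm in 20 arrays rests on 1 array at ZT19.

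Many axonemal and ciliogenesis genes outside the families fell at ZT7 too. Their list, like the members, was chosen with earlier results of these data known, so it is not separate support. Of 43 tested, 25 fell and 1 rose with 20 arrays, with a median of -0.39, and 4 fell with 24. Over all genes 13.8% fell and 12.9% rose with 20 arrays, and 0.234% fell with 24. Hydin, a giant protein of the central pair, read 6.26, 6.25 and 6.27 in CON and 5.46, 5.51 and 5.53 in TSR, and fell in both fits (-0.76 ± 0.16, adjusted p = 0.0312, 24 arrays). Ccdc153 and Ccdc39, the latter a ruler that spaces dynein arms, fell by 0.57 ± 0.09 and 0.49 ± 0.11 with 20 arrays. Tppp3, a tubulin-binding protein of ependymal cells, read 8.70, 8.63 and 8.74 in CON and 8.0, 7.74 and 8.07 in TSR (-0.75 ± 0.09, adjusted p = 5.03e-06, 20 arrays). Gas8 and Ccdc40, a partner of CCDC39, differed by -0.25 ± 0.10 and -0.24 ± 0.12 and did not pass. Intraflagellar transport, which builds cilia of every kind including the immotile primary cilia of neurons, had calls in both directions: 2 of 43 genes fell and 3 rose with 20 arrays, where 26.7% of all genes passed, and 0 passed with 24. The median of the list was -0.10. Ift88 differed by -0.20 ± 0.08 and the motor gene Kif3a by 0.29 ± 0.14, neither past the threshold.

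Genes of ventricular cells other than cilium genes passed in both directions at ZT7, where 26.7% of all genes passed with 20 arrays, 13.8% lower and 12.9% higher. Of 20 tested ependymal genes, 9 fell and 3 rose with 20 arrays (median -0.14), so this list leaned lower, and 0 passed with 24. Lists can share genes: the ependymal and astrocyte lists had the same highest difference at ZT19 (1.855) and on average (0.504) with 24 arrays. Rarres2, a secreted chemoattractant, fell from 6.78, 6.84 and 6.90 in CON to 6.15, 5.88 and 6.26 in TSR (-0.75 ± 0.09, adjusted p = 4.16e-06, 20 arrays). Tanycytes, the non-motile lining cells of the ventricle floor, had 3 of 13 genes lower and 4 higher (median 0.05), with Gpr50 at 0.25 ± 0.12 and Col23a1 at 0.05 ± 0.11, neither past the threshold. Of 24 choroid plexus genes, 7 passed the limit on the level, 2 fell and 1 rose (median 0.19). Ttr, the plexus transport protein of thyroid hormone, read 6.88, 7.01 and 6.89 in CON and 6.56, 6.41 and 6.48 in TSR (-0.44 ± 0.13, adjusted p = 0.0173, 20 arrays), and Folr1 lay under the limit. Ttr thus went against the median of its list. At ZT1 it was instead higher in TSR, with 5.82, 5.18 and 5.77 in CON against 7.06 and 6.92 in the TSR arrays of ordinary range. It was also higher in TSR at ZT13, with 5.62, 5.25 and 5.48 in CON against 6.58 and 6.73. At ZT19 the single CON array of ordinary range read 5.47, against 6.88, 6.82 and 6.68 in TSR. Among CON arrays of ordinary range Ttr was thus highest at ZT7.

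Markers of neighbouring brain regions also differed at ZT7. Over all genes 13.8% fell and 12.9% rose there with 20 arrays, and 0.234% fell and 0.226% rose with 24. Of 11 tested genes of forebrain cholinergic and striatal neurons, 10 rose with 20 arrays and 9 with 24, by a median of 1.28 log2 units within a range of 0.29 to 3.16. Their mean level was 7.02 to 7.10 in the CON arrays of ZT7 and 8.42 to 8.46 in the TSR arrays. Of 12 tested genes of the suprachiasmatic nucleus, the circadian pacemaker above the optic chiasm, 10 fell with 20 arrays (median -0.56) and 1 with 24. Their mean level was 7.84 to 7.93 in CON and 7.32 to 7.35 in TSR at ZT7. Thus genes of one neighbouring region were higher, and those of another lower, in the arrays where axoneme genes were lower.

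The lists were followed over the other times as well. The suprachiasmatic mean in the 20 arrays was 7.54, 7.89, 7.75 and 7.69 in CON at ZT1, ZT7, ZT13 and ZT19, and 7.4, 7.33, 7.33 and 7.79 in TSR. The forebrain list stood at 7.96, 7.07, 7.83 and 7.03 in CON and at 8.01, 8.44, 8.15 and 7.97 in TSR. The forebrain list was thus low in the controls of ZT7 and ZT19 and highest in the restricted mice of ZT7, opposite to the axoneme genes in both groups of ZT7. The part of these regional markers in the axoneme result was not tested.

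**Figure D4:**
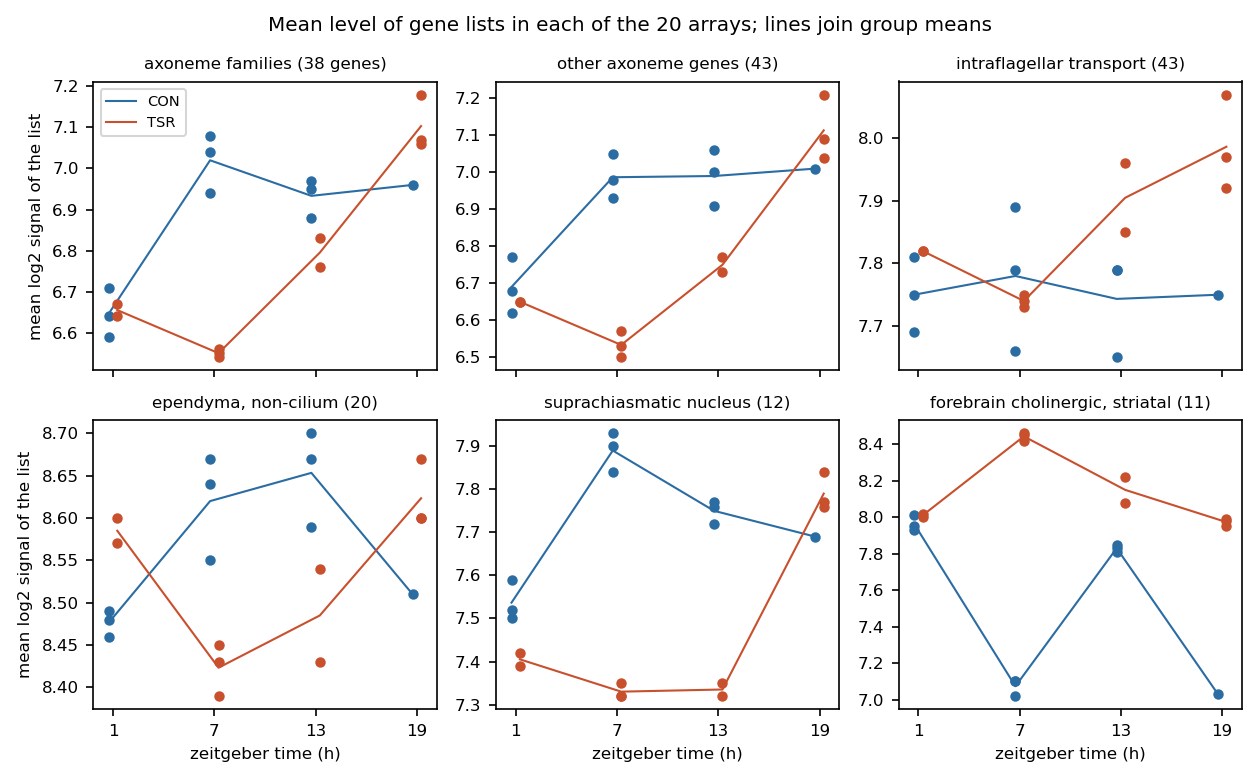
Mean log2 signal of 6 gene lists in each of the 20 arrays of ordinary range by zeitgeber time in hours, CON in blue and TSR in red, with lines through the group means and the number of tested genes in each title. Axoneme families, other axoneme genes and suprachiasmatic genes share a low TSR ZT7 group and a high CON ZT7 group, and the forebrain list is reversed at that time.

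Markers of other cell types were called in both directions at ZT7, where 26.7% of all genes passed with 20 arrays (13.8% lower, 12.9% higher). Of these lists only the microglial one had a share of calls under that of all genes. With 20 arrays astrocyte genes had 4 of 15 lower and 1 higher (median 0.02), oligodendrocyte genes 1 of 17 lower and 8 higher (0.20), and microglial genes 0 of 9 in either direction. Endothelial genes had 1 of 8 lower and 3 higher (0.25), meningeal genes 0 of 6 lower and 2 higher (0.10), thalamic and cortical genes 2 of 10 lower and 4 higher (0.13), and arcuate and ventromedial genes 4 of 12 lower and 1 higher (-0.10). With 24 arrays 2 endothelial and 2 thalamic and cortical genes rose, and 0 genes of the other lists in this paragraph passed. Their part in the axoneme result was likewise not tested.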

How the data were processed

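Total RNA of the mediobasal hypothalamus was labelled with biotin and measured on Affymetrix arrays, per the labels. The authors deposited 1 table of probe-set signals on a log2 scale. The tool listed is Expression Console of Affymetrix, per the submitters' processing notes (version and summary method not given in the sources used here). Depth has no counterpart on arrays, and 3 arrays a group limit the precision.

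Cells with a shifted decimal point were multiplied or divided by 10, under fixed rules on the values of the probe set: 2657 of 853344 (0.311%), 2 of them in members. A further 62 that stood over 2.5 log2 units from the probe set's median were set to missing, 0 of them in members, and 9 were missing as deposited. Probe sets with 1 symbol in the array's annotation were kept, and 7 member probe sets with several symbols were left out. The highest-mean probe set stood for a gene.

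Group means were fitted with limma 3.58.1 in R 4.3.3, with a trended prior, 2-sided moderated tests or F tests, and Benjamini-Hochberg adjustment over all 11963 genes past the filter. An adjusted p under 0.05 passed. The fit was tested on simulated data. Members under the filter are named without values except Foxj1, and outside genes were named from a written list. Members and lists were chosen with earlier results of these data known. Replicate numbers of the titles did not pair the arrays: correlations of their deviations were -0.43 to 0.39. Alternatives covered arrays, normalization, filter, prior, weights, probe sets, repair and blocks. Promoter windows came from RefSeq.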

Additional observations from a re-analysis of the deposited data

Results flagged for a closer look

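In 4 members the difference between conditions changed with the time by an F test of that change itself, with all 24 arrays. The adjusted p was 0.0235 for Dnah11, 0.0255 for Cfap70, 0.0308 for Cfap61 and 0.0393 for Cfap65. Dnah11 and Cfap61 reached the limit on the level only with the CON ZT7 arrays, where they read high. With 20 arrays the values were 0.00175, 2.96e-06, 0.000397 and 0.000136 in the same order. In 20 arrays Cfap70 differed, TSR minus CON, by 0.19 at ZT1, -1.14 at ZT7, -0.09 at ZT13 and 0.34 at ZT19, and of these the difference at ZT7 passed. Cfap65 differed by -0.12, -1.17, -0.80 and -0.31, of which those at ZT7 and ZT13 passed.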

How the results depend on the processing

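Counts of members that passed are given in the order ZT1, ZT7, ZT13, ZT19, average, rhythm in CON, rhythm in TSR and change with time. With 24 arrays they were 0, 6, 1, 22, 1, 0, 2 and 4, and with 20 arrays 1, 26, 16, 7, 23, 19, 25 and 24. Array weights gave 5, 27, 20, 28, 26, 32, 31 and 37, a term for the narrow arrays 0, 23, 16, 5, 21, 14, 20 and 20, and quantile normalization of 24 arrays 0, 2, 1, 20, 2, 0, 0 and 0. Over all genes the array weights called 26.1%, 31.4%, 50.3%, 83.8%, 77.9%, 86.35%, 42.1% and 90.2% in that order. The members' share was below that at ZT19, on average and for the rhythm in CON. With the term for narrow arrays the shares of all genes were 1.83%, 14.7%, 31.0%, 16.8%, 48.9%, 8.63%, 4.89% and 10.5%. Quantile normalization gave 0.0752%, 0.493%, 2.48%, 53.8%, 8.92%, 0.142%, 0.0334% and 0.226%. Without the filter the counts, then of 76 members, were 0, 2, 0, 34, 2, 0, 1 and 0. The shares of all genes there were 0.0953%, 0.216%, 0.0752%, 49.7%, 0.963%, 0.0401%, 0.0602% and 0.0953%. Without the trend the counts were 0, 3, 1, 21, 1, 0, 2 and 3, and with all probe sets averaged 0, 8, 1, 23, 2, 0, 6 and 5. Shifted cells set to missing changed no count. Fits to the 6 arrays of a time gave 0, 22, 0 and 0. For 20 arrays with quantile normalization, planned as well, the counts were 0, 27, 17, 7, 27, 21, 25 and 24. The following were added after seeing the data. For 20 arrays without the filter they were 0, 37, 18, 5, 36, 20, 35 and 29, and with all probe sets 0, 26, 19, 6, 24, 18, 25 and 24. With the replicate block they were 0, 3, 0, 21, 1, 0, 2 and 3 for 24 arrays, as planned, and 0, 26, 14, 4, 23, 19, 25 and 23 for 20.

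Leaving out each array in turn gave, with 24 arrays, 0 to 0, 0 to 10, 0 to 2, 0 to 27, 1 to 7, 0 to 25, 1 to 9 and 0 to 29 members. The average was 7 without TSR ZT1 replicate 3, 3 without TSR ZT13 replicate 2 and 2 without CON ZT19 replicate 3. With 20 arrays the ranges, also added, were 0 to 1, 24 to 26, 11 to 16 (13 or 15 without an array of CON ZT13), 3 to 10, 18 to 25, 14 to 20 (15 without CON ZT13 replicate 2), 22 to 27 and 20 to 24. At ZT19, Cfap300 and Rsph4a turned from higher to -0.0377 and -0.0205 with 20 quantile-normalized arrays, and the cause was not tested. No other difference called with 24 arrays changed sign under these settings. With 20 arrays the members' split at ZT19 was 6 higher and 1 lower, and 5 and 2 after quantile normalization. In signal, 38 of 76 members lay under the level tested.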

Other observations

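Some members read outside their range of the other arrays in the narrow arrays, Cfap157 above it and Spag9 below it. Cfap157 read 7.04 in TSR ZT1 replicate 3, 6.93 in TSR ZT13 replicate 2 and, in replicates 2 and 3 of CON ZT19, 7.01 and 6.84. In the other 20 arrays it lay between 5.44 and 5.94. Spag9 read 8.92, 9.05, 8.55 and 8.43 in the same arrays, against 9.96 to 10.47 in the others. Cfap43 read 7.82, 6.60, 7.02 and 7.4, against 5.44 to 6.97, so TSR ZT13 replicate 2 lay inside that range.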
